A study of Mus musculus with 2 samples.

Results

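The transcripts examined were those of glycolysis and of the hypoxia response, a set of 36 genes found by symbol among the 51912 gene rows of the deposited count files: 16 glycolytic enzymes and 20 further genes for flux control, glucose and lactate transport, oxygen sensing and hypoxia-inducible functions. They were measured in 2 RNA-seq libraries of mouse embryonic fibroblasts (MEFs), connective tissue cells grown from embryos, on a C57BL/6 background. Both lines carried SV40 T antigen, a viral protein that immortalizes cells by inactivating p53 and the RB proteins, and both were infected with an adenovirus carrying Cre recombinase (Ad-Cre). Usp16 was wild-type (Usp16+/+) in the line called KS and was floxed before infection in the line called UKS, which is then Usp16-/-. Each line gave 1 library, so the differences have no replicate check, no p-value is given, and the values describe these 2 libraries.

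Glycolysis splits glucose into pyruvate, which lactate dehydrogenase can reduce to lactate so that the pathway keeps running when oxygen is short. Oxygen is sensed by prolyl hydroxylases (the EGLN enzymes), which mark the HIF alpha proteins for destruction. At low oxygen HIF alpha is stable, pairs with ARNT and raises the transcription of many glycolytic enzymes, of glucose transport and of genes such as Vegfa and Adm. HIF-1α is controlled mostly as a protein, so its mRNA level is not a measure of HIF activity.

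The enzymes of glycolysis mostly differed little between the libraries. Of the other 20 genes 15 were within 2-fold, while a few differed much. No enzyme was 2-fold higher or lower in UKS, and 15 of the 16 stood slightly above KS (13 with DESeq2 size factors), led by Ldha (1.56-fold) and Pfkm (1.53-fold). Over all measured genes, 51.9% stood above KS, 5.81% were past 2-fold higher and 10.7% past 2-fold lower. Among the other 20 genes the HIF-2α gene Epas1 was 12.9-fold higher in UKS, Ddit4 and Ankrd37 were past 2-fold higher, and Adm and Ndrg1 were past 2-fold lower. Hif1a, the more abundant of the HIF alpha genes in both libraries, was 1.85-fold lower. Transcript length and GC content went with the ratios of all genes. With that trend removed 8 of the 16 enzymes stood above 0, beside 50.5% of all measured genes. Ddit4 and Ankrd37 were then within 2-fold and Hif1a had a log2 ratio of −0.21, while Epas1, Adm and Ndrg1 stayed past 2-fold.

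The libraries held 26561619 counts in KS and 23205757 in UKS after rounding, so 1 count equals 0.0379 and 0.0428 CPM (counts scaled to a common library size, with TMM factors that align the libraries). Usp16, the targeted gene, was covered by 1195 counts in KS against 459 in UKS, 2.30-fold lower [2.07 to 2.57]. Brackets hold exact 95% intervals from counting error alone. Its transcripts were thus lower in the library labelled Usp16-/- but not absent, and its log2 ratio of −1.16 was −0.88, within 2-fold, once the trend described next was removed. Xist, the RNA that silences an X chromosome in female cells, had 1 count in KS and 6998 in UKS, and the Y-linked Ddx3y had 1511 and 1, so differences tied to the sex of the lines and to Usp16 cannot be told apart. All 10 fibroblast markers were measured, with a sum of 9489.5 CPM in KS and 6224 CPM in UKS, Vim and Col1a2 leading. Their members went apart, with Thy1 at 168 and 35.6 CPM and Dcn at 25.7 and 266 CPM. Vim had a log2 ratio of −0.80, or −1.14 with the trend removed. Summed markers of other cell types were at most 29.6 CPM in KS and 22.3 CPM in UKS (neural, mostly Tubb3), and Adgre1, Cd3e, Sox10 and Myog had no counts in either library. In such bulk samples, fewer cells of a type and less RNA per cell cannot be told apart.

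Differences are given as log2((UKS CPM + 1)/(KS CPM + 1)), called the log2 ratio, over the 13015 genes that averaged 1 CPM or more. Folds are ratios of CPM without the added 1. All 36 members passed that filter, although Car9 had only 20 and 31 counts. Short and GC-rich transcripts were higher in UKS across the transcriptome, with a median log2 ratio of −0.81 in the tenth of genes of lowest GC content and 0.40 in the tenth of highest. Removing this trend with transcript length and GC content takes some log2 ratios across 0 or 2-fold. For the members, Usp16 and listed genes given with values, such log2 ratios are therefore given both ways.

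The 16 glycolytic enzymes took 395944 counts in KS and 412645 in UKS. That was 1.49% of all counts in KS [1.486 to 1.495] and 1.78% in UKS [1.77 to 1.78], a share 1.19 times as large in UKS [1.19 to 1.20]. This share is not corrected for the trend with transcript length and GC content. The enzymes are among the most abundant transcripts of these cells, 8 of the 16 standing among the 200 most abundant genes in both libraries. By log2 ratio 0 of the 16 enzymes were past 2-fold on either side, while 5.81% of all measured genes were past it on the higher side and 10.7% on the lower. A log2 ratio above 0 was found in 15 of 16 (13 with DESeq2 size factors, where Gapdh and Eno1 lay just below 0), beside 51.9% of all measured genes. The enzymes had a median log2 ratio of 0.29, beside 0.03 over all measured genes. With the trend removed, 8 of 16 lay above 0 (50.5% of all measured genes) and the median was 0.03, beside 0.01 over all measured genes. The enzyme transcripts had a median GC content of 54.1% and a median length of 2609 nt, beside 49.9% and 3158 nt over all measured genes.

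**Figure D1:**
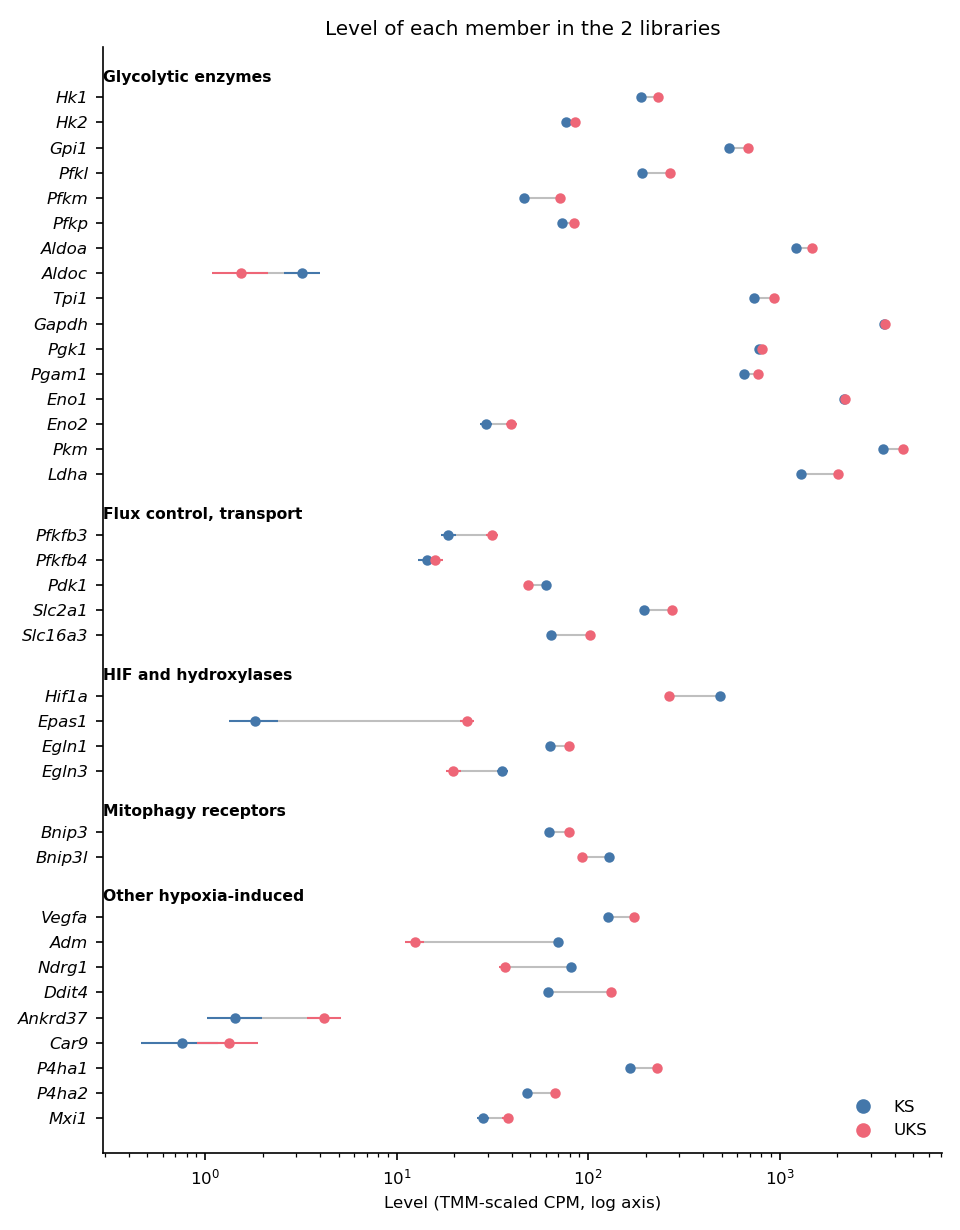
Levels of the 36 members (rows, grouped by role) as TMM-scaled CPM on a log axis, with KS in blue and UKS in red, 1 library each. Bars are exact 95% Poisson intervals of the counts and are hidden by most points. The widest gaps are those of Epas1 (1.82 and 23.4 CPM) and Adm (69.8 and 12.4 CPM), while most enzymes have nearly coinciding points.

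Taken in the order of the pathway, entry of glucose came first. Hk1 and Hk2 encode the hexokinases that trap glucose as its phosphate. Hk1 had 188 CPM in KS against 231 in UKS, and Hk2 had 76.6 and 85.4 CPM. Both were a little higher in UKS, 1.23-fold [1.18 to 1.28] and 1.11-fold [1.05 to 1.19]. Gpi1, which turns glucose 6-phosphate into fructose 6-phosphate, had 542 and 685 CPM, 1.26-fold higher [1.24 to 1.29].

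Phosphofructokinase catalyses the committed step and is built from liver (Pfkl), muscle (Pfkm) and platelet (Pfkp) type subunits. Pfkl had 192 CPM in KS against 267 in UKS, 1.39-fold higher [1.34 to 1.45]. Pfkm had 46.5 and 71.1 CPM, 1.53-fold higher [1.42 to 1.65], and Pfkp had 72.8 and 84.1 CPM, 1.15-fold higher [1.08 to 1.23]. The 3 subunit genes thus stood on the same side, and kept log2 ratios of 0.22, 0.32 and 0.30 with the trend removed. Per kilobase of transcript, Pfkl was the leading subunit with 60.4% of the family in KS and 61.4% in UKS. Exons of Pfkm overlap those of Senp1, and exons of Pfkp those of Pitrm1, on the opposite strand. Whether counting used strand is not given in the sources used here, so part of the reads of Pfkm and Pfkp could belong to those neighbours.

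The middle of the pathway cleaves the sugar and harvests its energy. Aldoa, the main aldolase of fibroblasts, had 1216 CPM in KS against 1478 in UKS. Its brain-type relative Aldoc had 85 counts (3.22 CPM) in KS against 36 (1.54 CPM) in UKS. Aldoc was the enzyme gene that stood lower in UKS, 2.09-fold [1.40 to 3.18] as a ratio of CPM and −0.73 as a log2 ratio, which the added 1 CPM keeps within 2-fold. Tpi1, which interconverts the triose phosphates, had 736 and 939 CPM, 1.28-fold higher [1.25 to 1.30]. Its log2 ratio of 0.35 was −0.04 with the trend removed.

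Gapdh, the oxidizing step and a common reference gene, had 3520.0 CPM in KS against 3569 in UKS, a fold of 1.01 [1.0045 to 1.023]. Pgk1, the first enzyme to yield ATP and encoded on the X chromosome, had 782 and 805 CPM, a fold of 1.03 [1.01 to 1.05]. Eno1, the ubiquitous enolase, had 2179 and 2205 CPM, a fold of 1.01 [1.0003 to 1.024]. These 3 genes were the nearest to equal of the pathway, and with DESeq2 size factors Gapdh and Eno1 were both at −0.01 on the log2 scale. Measured genes of the X chromosome had a median log2 ratio of −0.29, beside 0.04 for the autosomes, and the part of this in the value of Pgk1 was not tested. Pgam1, the mutase before enolase, had 655 and 771 CPM, 1.18-fold higher [1.15 to 1.20]. Corrected for the trend, the log2 ratio of Pgk1 went from 0.04 to −0.15 and that of Pgam1 from 0.23 to −0.11. Eno2, the neuron-type enolase, had 29.2 and 39.7 CPM, 1.36-fold higher [1.236 to 1.4996].

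The last steps form pyruvate and lactate. Pkm, which encodes the M1 and M2 pyruvate kinases, had 3470.3 CPM in KS against 4429 in UKS, 1.28-fold higher [1.26 to 1.29]. Ldha (ENSMUSG00000063229; GRCm38 chromosome 7, 46841475 to 46855627, plus strand), the lactate dehydrogenase subunit that favours lactate formation, had 1291 and 2012 CPM, 1.56-fold higher [1.54 to 1.58]. Its log2 ratio of 0.64 was at percentile 86.9 of all measured genes, inside the spread of the transcriptome. Removing the trend left 0.36, while Pkm went from 0.35 to −0.06, Aldoa from 0.28 to −0.21, Eno1 from 0.02 to −0.43 and Gapdh from 0.02 to −0.48. With length and GC content accounted for, the enzymes thus lay on both sides of 0. The counts of Gapdh, Eno1, Pkm, Pgam1, Gpi1 and Pfkp were not whole numbers in the deposited files, so reads may have been divided with similar rows. Adding the rows of named copies such as Pgam1-ps2 (341 and 241 counts) and Eno1b (22 and 2 counts) left no enzyme past 2-fold by log2 ratio.

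**Figure D2:**
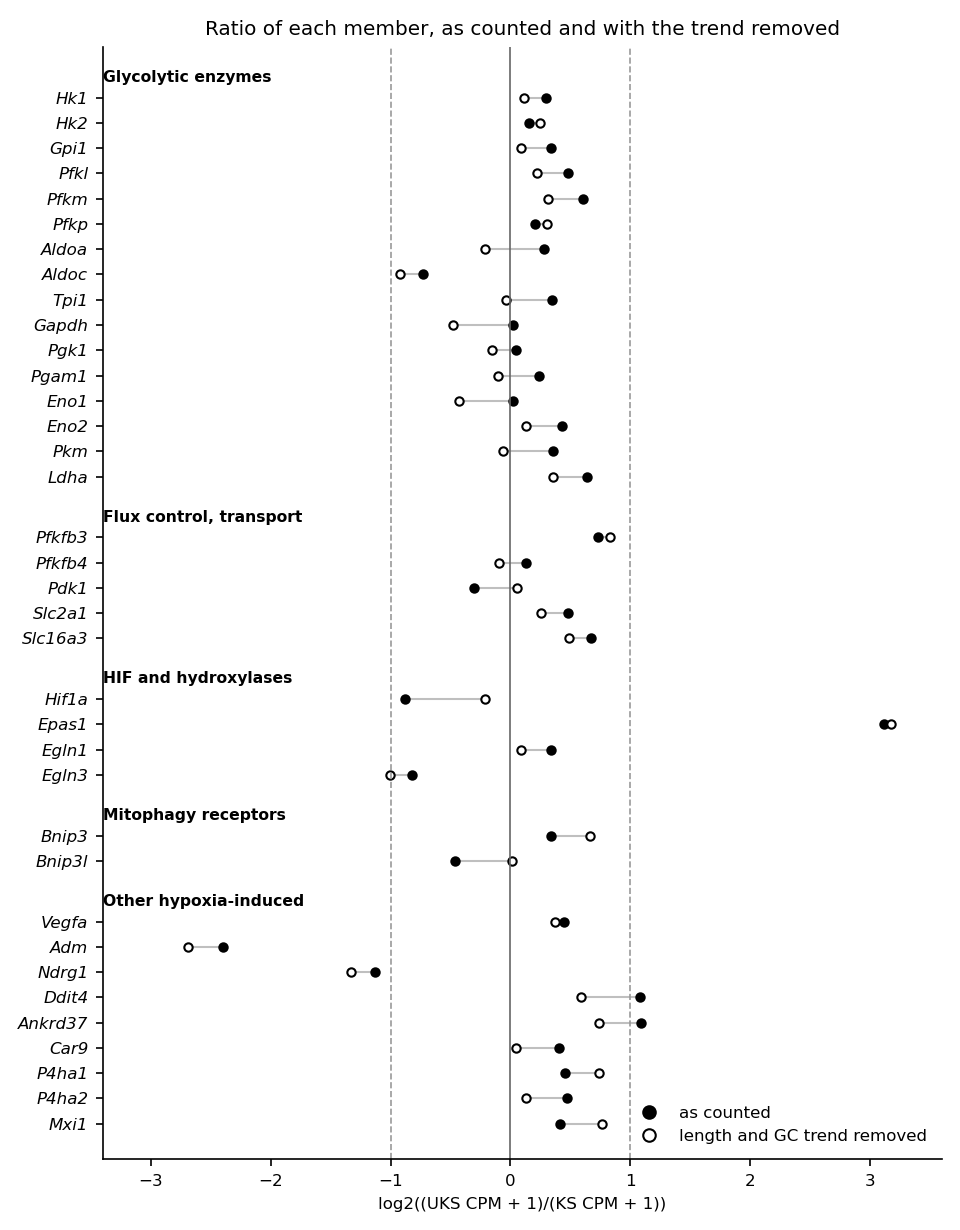
Log2 ratios of the 36 members (rows, grouped by role) as counted (filled) and with the trend with transcript length and GC content removed (open), with dashed lines at 2-fold. Of the enzymes 15 of 16 filled points (13 with DESeq2 size factors) and 8 of 16 open points lie above 0, while Epas1, Adm and Ndrg1 lie past 2-fold with both.

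Genes that set glycolytic flux were examined beside the enzymes. Pfkfb3 makes fructose 2,6-bisphosphate, the strongest activator of phosphofructokinase. It had 18.6 CPM in KS against 31.6 in UKS, 1.70-fold higher [1.51 to 1.91], with a log2 ratio of 0.73, or 0.83 with the trend removed. Its relative Pfkfb4 had 14.4 and 15.8 CPM, and its interval (0.949 to 1.27) included equal levels (log2 ratio 0.13, or −0.10 with the trend removed). Per kilobase the Pfkfb4 share of the pair was 51.6% in KS [48.2 to 55.0] and 40.8% in UKS [37.8 to 43.9].

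Glucose enters fibroblasts through GLUT1, encoded by Slc2a1, which had 197 CPM in KS against 275 in UKS, 1.40-fold higher [1.35 to 1.45]. MCT4, a lactate exporter, is encoded by Slc16a3, which had 64.2 and 103 CPM, 1.60-fold higher [1.504 to 1.705]. It was not the most abundant gene of its family. Slc16a1, a transport gene outside the members named here after its values were seen, had 102 and 138 CPM, 1.34-fold higher. Pdk1, the kinase that keeps pyruvate out of mitochondria by inhibiting pyruvate dehydrogenase, had 60.3 and 48.8 CPM and was 1.24-fold lower [1.15 to 1.34]. The entry and export transporters therefore stood on 1 side and Pdk1 on the other, and none of the 5 members for flux and transport was past 2-fold. Corrected for the trend, the log2 ratio of Pdk1 went from −0.30 to 0.05 and that of Slc16a3 from 0.67 to 0.49.

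The HIF alpha genes differed in opposite directions. Hif1a (ENSMUSG00000021109; chromosome 12, 73901375 to 73947530, plus strand) stood at 487 CPM in KS (12859 counts) against 264 CPM in UKS (6164 counts), 1.85-fold lower [1.79 to 1.90]. Its counts, too, were not whole in the deposited files. The transcript is AT-rich (GC content of 41.3%), and its log2 ratio of −0.88 was −0.21 with the trend removed. Epas1 (ENSMUSG00000024140; chromosome 17, 86753700 to 86833410, plus strand), which encodes HIF-2α, a subunit best known from endothelial cells, had 48 counts (1.82 CPM) in KS against 547 (23.4 CPM) in UKS. It was 12.9-fold higher [9.58 to 17.7], at percentile 99.6 of all measured genes, and its log2 ratio of 3.12 was 3.18 with the trend removed. Per kilobase Epas1 made up 0.319% of the pair in KS [0.235 to 0.422] and 7.06% in UKS [6.50 to 7.66]. Hif1a stayed the more abundant of the pair in both libraries. The endothelial markers Pecam1, Cdh5, Tek, Kdr and Emcn summed to 2.73 CPM in KS against 2.14 in UKS. Kdr (1.44 and 0.814 CPM) and Emcn (8 and 0 counts) were lower in UKS. Pecam1 (0.114 and 0.257 CPM), Tek (0.530 and 0.685 CPM) and Cdh5 (0.341 and 0.385 CPM) were slightly higher. Of these markers only Kdr averaged 1 CPM or more, and a part of endothelial cells in the value of Epas1 was not tested.

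The EGLN prolyl hydroxylases also went apart. Egln1, the main oxygen sensor of most cells, had 62.9 CPM in KS against 79.8 in UKS, 1.27-fold higher [1.19 to 1.36]. Egln3, which is itself strongly induced by HIF, had 35.6 and 19.8 CPM, 1.80-fold lower [1.61 to 2.02]. As counted the log2 ratio of Egln3 was −0.82, and removing the trend gave −1.001, just past 2-fold lower. Its share of the pair per kilobase was 43.3% in KS [41.4 to 45.3] and 25.1% in UKS [23.2 to 27.0].

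**Figure D3:**
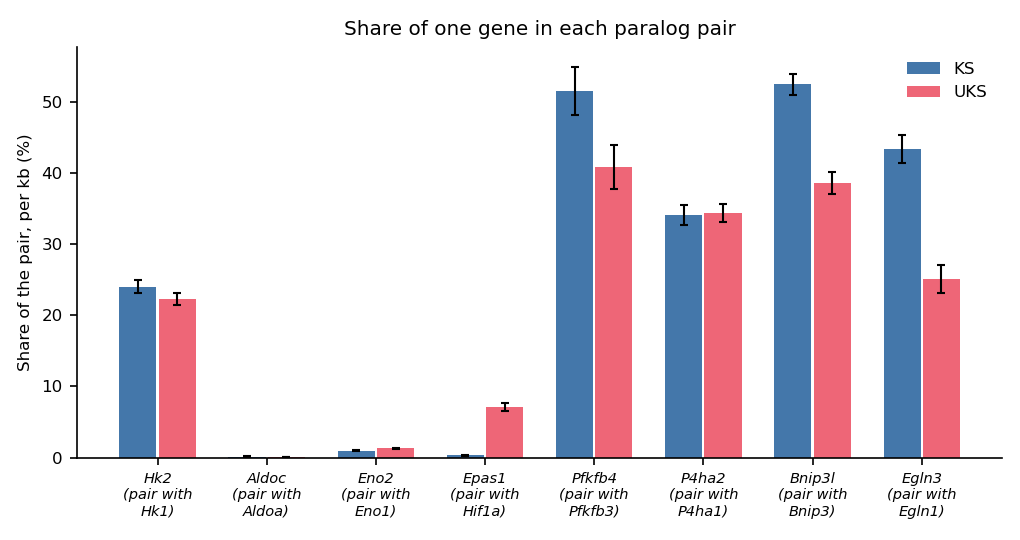
Share of the named gene in each pair of related genes, from counts per kilobase of transcript, in KS (blue) and UKS (red), 1 library each, with exact 95% binomial intervals for counting error. Epas1 is higher in UKS (0.319% and 7.06%), Egln3, Bnip3l and Pfkfb4 are lower, and P4ha2 is nearly equal (34.1% and 34.4%).

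The genes induced by hypoxia outside metabolism held most of the members past 2-fold. Over the 20 members that are not enzymes, 3 were past 2-fold higher and 2 past 2-fold lower, beside 5.81% and 10.7% of all measured genes, with a median log2 ratio of 0.41. With the trend removed, 1 was higher and 3 were lower, beside 5.50% and 4.95% of all measured genes, with a median of 0.19. A log2 ratio above 0 was found in 14 of 20 as counted and 15 of 20 with the trend removed, beside 51.9% and 50.5% of all measured genes. These 20 genes together took 45349 counts in KS and 40300.0 in UKS, a share 1.02 times as large in UKS [1.004 to 1.031].

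Adm (ENSMUSG00000030790; chromosome 7, 110627661 to 110629820, plus strand) encodes adrenomedullin, a secreted vasodilator peptide. Its level was 69.8 CPM in KS (1843 counts) against 12.4 CPM in UKS (290 counts), 5.62-fold lower [4.96 to 6.38]. Its log2 ratio of −2.40 was at percentile 0.692 of all measured genes and was −2.69 with the trend removed. Ndrg1 (ENSMUSG00000005125; chromosome 15, 66929318 to 66969640, minus strand), a stress-responsive gene of growth arrest and differentiation, had 2147 counts (81.3 CPM) and 856 (36.7 CPM), 2.22-fold lower [2.05 to 2.40]. As counted its log2 ratio was −1.13, and removing the trend gave −1.33. Both therefore kept their 2-fold difference, and for transcripts of their length (1390 and 2889 nt) and GC content the trend itself lies above 0.

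Ddit4 (ENSMUSG00000020108; chromosome 10, 59949669 to 59951834, minus strand) encodes REDD1, an inhibitor of the mTORC1 growth pathway that many stresses besides hypoxia induce. It had 61.7 CPM in KS (1630 counts) against 131 CPM in UKS (3070 counts), 2.13-fold higher [2.005 to 2.263]. Ankrd37 (ENSMUSG00000050914; chromosome 8, 45996902 to 46005707, minus strand), an ankyrin repeat gene known as a direct HIF target, had 38 counts (1.44 CPM) and 98 (4.20 CPM), 2.92-fold higher [1.99 to 4.36]. Removing the trend brought their log2 ratios of 1.08 and 1.09 to 0.59 and 0.73, within 2-fold. Exons of Ankrd37 overlap Ufsp2 on the opposite strand, which had 861 and 716 counts, so the few reads given to Ankrd37 are uncertain.

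The promoters of the members past 2-fold, as counted or with the trend removed, are shown to let a reader see which of them hold the core letters that HIF is known to recognize. They are the RefSeq windows from 250 bases before to 50 after the start site, build GRCm38.p6, 5′ to 3′ on the strand of the gene. Capitals mark ACGTG and GCGTG on either strand (CACGT and CACGC when read from the other strand), and overlapping matches share capitals.

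Adm, chr7:110627407-110627706, plus strand: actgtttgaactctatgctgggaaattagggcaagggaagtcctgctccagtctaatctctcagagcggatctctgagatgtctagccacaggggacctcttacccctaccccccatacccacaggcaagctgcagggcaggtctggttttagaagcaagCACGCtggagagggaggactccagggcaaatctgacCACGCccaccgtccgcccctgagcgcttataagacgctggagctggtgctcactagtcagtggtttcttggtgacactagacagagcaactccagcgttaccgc

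Egln3, chr12:54203825-54204124, minus strand: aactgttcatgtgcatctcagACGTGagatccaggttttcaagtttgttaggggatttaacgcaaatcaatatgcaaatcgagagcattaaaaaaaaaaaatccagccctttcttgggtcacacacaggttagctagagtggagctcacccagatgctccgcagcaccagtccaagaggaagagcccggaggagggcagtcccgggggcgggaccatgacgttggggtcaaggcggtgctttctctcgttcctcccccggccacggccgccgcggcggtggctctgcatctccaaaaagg

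Ddit4, chr10:59951721-59952020, minus strand: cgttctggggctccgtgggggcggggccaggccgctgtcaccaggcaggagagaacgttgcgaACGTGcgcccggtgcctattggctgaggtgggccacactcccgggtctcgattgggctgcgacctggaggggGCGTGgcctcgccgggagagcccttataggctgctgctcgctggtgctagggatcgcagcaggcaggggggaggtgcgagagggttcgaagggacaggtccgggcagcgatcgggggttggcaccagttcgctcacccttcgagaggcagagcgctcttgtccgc

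Ankrd37, chr8:45999801-46000100, minus strand: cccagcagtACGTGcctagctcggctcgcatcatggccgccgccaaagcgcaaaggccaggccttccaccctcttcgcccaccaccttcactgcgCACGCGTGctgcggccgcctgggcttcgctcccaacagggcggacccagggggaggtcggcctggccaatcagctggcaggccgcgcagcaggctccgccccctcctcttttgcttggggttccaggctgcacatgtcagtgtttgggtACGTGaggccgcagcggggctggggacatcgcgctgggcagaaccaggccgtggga

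Adm, which was lower in UKS, held 2 matches, both GCGTG on the other strand. Egln3 held 1 match (ACGTG), Ddit4 held 1 of each, and Ankrd37 held 2 of each, among them an overlapping pair. Matches were thus present in promoters of members on both sides. The table gave a promoter for 33 of the 36 members, some with several start sites, and had none for Epas1, Bnip3l and Ndrg1. Of the 49 member promoters 28 held ACGTG (57.1%) and 26 held GCGTG (53.1%), beside 19.6% and 32.4% of all 32851 promoters of the same length. Some windows of the same gene overlap, as for Aldoa and Eno1, so 1 site can be counted in several windows. By gene, 24 of the 33 members held ACGTG and 21 held GCGTG, beside 5886 and 9500 of 27025 genes. Either motif was in 20 of 27 enzyme promoters and 19 of 22 of the others, beside 43.8% of all promoters. The members were chosen as genes of glycolysis and the hypoxia response, so these shares are not a result of the 2 libraries. The member promoters had a median GC content of 62.3%, beside 52.7% over all, and the part of base composition in these shares was not tested. A match describes letters in the window and is not a binding site.

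The remaining hypoxia-induced members stood within 2-fold. Vegfa, the main angiogenic growth factor, had 127 CPM in KS against 174 in UKS, 1.36-fold higher [1.30 to 1.43]. P4ha1 and P4ha2 encode the catalytic subunits of collagen prolyl 4-hydroxylase. P4ha1 had 166 and 229 CPM, 1.37-fold higher [1.32 to 1.43], and P4ha2 had 48.2 and 67.1 CPM (1272 and 1566 counts), 1.39-fold higher. As counted, both subunits thus differed by nearly the same fold, while with the trend removed their log2 ratios were 0.73 and 0.13. Mxi1, a MAX partner that opposes MYC, had 28.3 and 38.1 CPM, 1.35-fold higher [1.22 to 1.49]. Car9, the membrane carbonic anhydrase and a classical hypoxia marker, had 0.758 and 1.33 CPM, and its interval (0.968 to 3.24) included equal levels. Exons of the antisense gene Gm12454, with 21 and 18 counts, overlap those of Car9, so its 20 and 31 counts are uncertain as well.

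The mitophagy receptors, which mark mitochondria for removal, differed from each other. Bnip3 had 62.5 CPM in KS against 79.4 in UKS, 1.27-fold higher [1.19 to 1.36]. Bnip3l had 128 and 92.6 CPM, 1.39-fold lower [1.31 to 1.46]. Both transcripts are AT-rich, and with the trend removed their log2 ratios of 0.34 and −0.47 became 0.67 and 0.01.

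**Figure D4:**
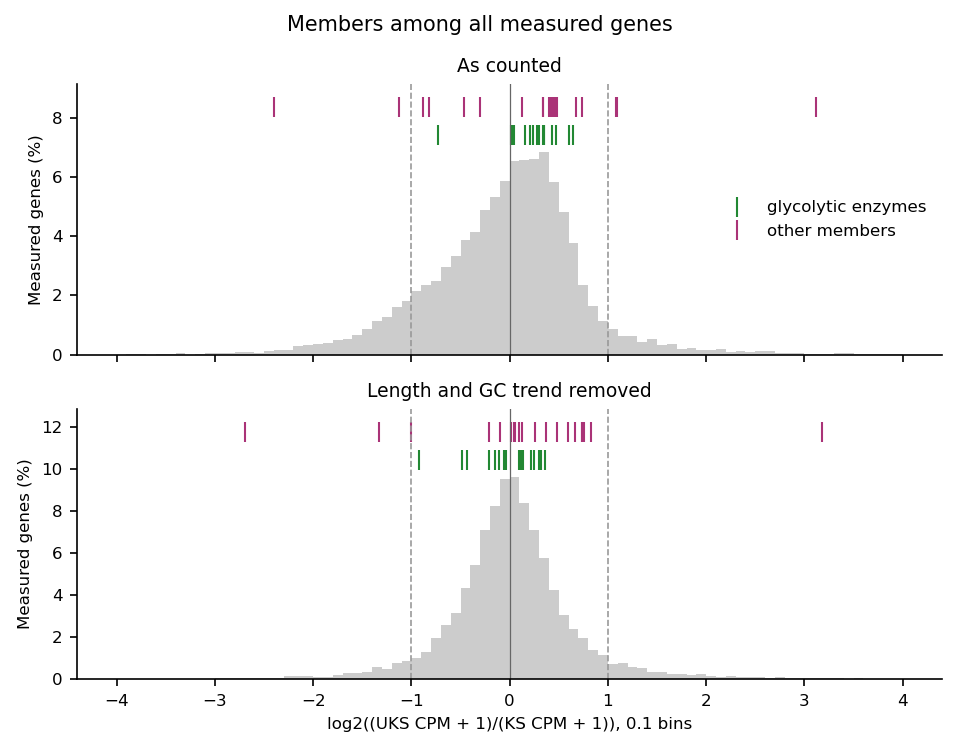
Distribution of the log2 ratio over measured genes (grey bars, percent of genes per bin) as counted (upper) and with the trend removed (lower), with ticks for the glycolytic enzymes (green) and the other members (purple) and dashed lines at 2-fold. The enzymes lie between −0.73 and 0.64 as counted, while the other members reach from −2.40 to 3.12.

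**Figure D5:**
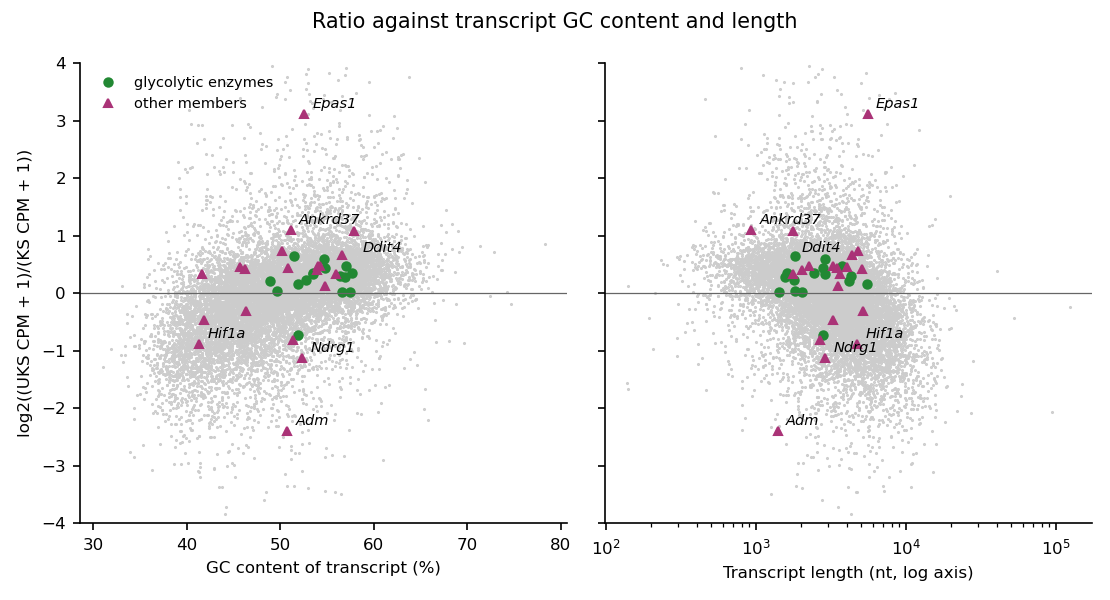
Log2 ratio against the GC content (left, percent) and length (right, nt, log axis) of each transcript, for measured genes (grey), glycolytic enzymes (green) and other members (purple). Grey points run from low at AT-rich and long transcripts to high at GC-rich and short ones, Hif1a lies within that cloud, and Epas1 and Adm lie near its edges; 28 measured genes beyond 4 in either direction are not drawn.

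Neighbouring genes of the pathways were read from lists chosen with earlier results of these data known. Of 11 measured transport genes, 11 had a log2 ratio above 0 (51.9% of all measured genes) and 1 was past 2-fold higher (5.81% of all measured genes), with a median of 0.64. They include basigin (Bsg), the chaperone of the lactate transporters, at 616 CPM in KS against 1028 in UKS (1.67-fold higher), and Slc2a8 at 10.5 and 22.0 CPM, with a log2 ratio of 1.002 that was 0.52 with the trend removed. Slc2a6 (2.69 and 5.87 CPM) and the mitochondrial pyruvate carrier subunit Mpc2 (15.5 and 29.9 CPM) were higher as well. Corrected for the trend, 11 of 11 stayed above 0 (50.5% of all measured genes), with a median of 0.47, and 1 was past 2-fold higher (5.50% of all measured genes). That one was Slc16a7, a monocarboxylate transporter named here after its values were seen, with 26 and 43 counts and a log2 ratio of 0.52 that became 2.03.

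Of 7 measured pentose phosphate genes none was past 2-fold and 5 were above 0 (51.9% of all measured genes), with a median of 0.29. With the trend removed, 3 of 7 were above 0 (50.5% of all measured genes) and the median was −0.13. The X-linked G6pdx, which opens that pathway, had 133 and 203 CPM, 1.53-fold higher, and Pgd, Pgls and Taldo1 had log2 ratios of 0.44, 0.29 and 0.29, which became 0.09, −0.27 and −0.13. Of 10 genes of pyruvate dehydrogenase and its regulators, 1 was past 2-fold lower and none past 2-fold higher (median −0.23), beside 10.7% and 5.81% of all measured genes. With the trend removed none was past 2-fold, and 5 lay above and 5 below 0. The lower one was the phosphatase gene Pdp1, at 32.2 and 14.0 CPM, with a log2 ratio of −1.14 that was −0.35 with the trend removed. Pdp2 had −0.73, the X-linked Pdha1 −0.41 and Pdk2 0.52, and these were −0.41, −0.24 and 0.10 with the trend removed.

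Of 12 measured regulators of the HIF pathway 1 was past 2-fold higher and none lower, beside 5.81% and 10.7% of all measured genes. It was Arnt2, a partner of HIF alpha best known from neurons, at 36.3 CPM in KS against 76.1 in UKS, with a log2 ratio of 1.05 and 1.20 with the trend removed. The coactivators Ep300 and Crebbp and the ubiquitin ligase subunit Cul2 had log2 ratios of −0.71, −0.63 and −0.60, and of −0.24, −0.09 and 0.04 with the trend removed. On the other side Rbx1, Egln2, Elob and Vhl, named here after their values were seen, had 0.60, 0.59, 0.53 and 0.51. With the trend removed these were 0.54, 0.11, −0.06 and 0.41. Of the 12 regulators 6 lay above 0 and 6 below as counted (51.9% of all measured genes above), with a median of −0.002. Of 29 measured further hypoxia-induced genes 1 was past 2-fold higher and 2 lower, beside 5.81% and 10.7% of all measured genes, and their median of 0.03 was that of all measured genes to 2 decimals. Angptl4, a secreted lipase inhibitor that lipid-sensing receptors also induce, had 2.01 CPM in KS (53 counts) against 39.7 CPM in UKS (926 counts), 19.8-fold higher [15.0 to 26.6]. The lower ones were the secreted glycoprotein Stc2 (12.9 and 3.21 CPM, 4.02-fold lower) and the ubiquitin ligase Rnf24 (73.4 and 30.0 CPM, 2.45-fold lower), and Vldlr had a log2 ratio of −0.92. With the trend removed 2 were higher and 1 was lower, beside 5.50% and 4.95% of all measured genes. Above 0 lay 15 of 29 as counted and 20 with the trend removed, beside 51.9% and 50.5% of all measured genes. The median with the trend removed was 0.12, beside 0.01 over all measured genes. Removing the trend took Rnf24 from −1.26 to −0.86 and Vldlr to −0.14, while Tmem45a, named here after its values were seen, went from 0.70 to 1.14. Hypoxia-induced genes thus stood on both sides, in this list as among the members.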

How the data were processed

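RNA was measured in 2 MEF libraries, KS and UKS, grouped by the sample descriptions. Per the labels' protocols, total RNA was taken with TRIzol and prepared with a TruSeq RNA kit. The submitters' processing notes name HISAT2, StringTie and GRCm38.p5, with no role or version. The authors deposited an estimated count for each gene (expected counts, without depth scaling), which was rounded to a whole number here. For the counter, annotation release and strand setting, nothing is given in the sources used here. Another engineered change that both lines carry is not reported here.

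CPM used TMM factors from edgeR 4.0.16 in R 4.3.3. The main value was log2((UKS + 1)/(KS + 1)) in CPM for genes averaging 1 CPM or more, and 2-fold was a size, not a test, since each group has 1 library. Exact 95% binomial (Clopper-Pearson) and Poisson intervals came from scipy 1.17.1 and cover counting error only. GENCODE M21 (GRCm38) gave positions and the length and GC content of the longest protein-coding transcript. Cubic terms of log2 length and GC content were fitted by robust regression (statsmodels 0.14.6, Tukey's biweight) on the measured genes other than the members and subtracted. A real difference tied to those properties would be removed with it. The steps were run on simulated counts with known folds and a linear trend. Those counts held counting error only, so they cannot show variation between libraries.

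Members and lists were chosen with earlier results of these data known. The named genes were the members, Usp16 and, of each neighbouring list, up to 4 measured genes with the largest absolute log2 ratio, besides the leading markers. Of the list symbols 3 were other names of listed genes and were not counted. Alternatives changed the scaling (total counts, DESeq2 1.42.0 size factors, upper quartile), pseudocount, filter, size threshold, trend and named copies.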

Additional observations from a re-analysis of the deposited data

How the results depend on the processing

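No paired analysis was possible because each group has 1 library. Of 321 member values recomputed under the alternatives, 12 had the other sign, 10 of them with the trend removed, and none was a member past 2-fold. With the trend removed the enzyme median was 0.028 and that of the other members 0.19, 1 other member was past 2-fold higher (Epas1), and 644 of all measured genes were past 2-fold lower, so that 52.6% of the genes past 2-fold were higher, against 35.1% as counted. With upper-quartile factors the enzyme median was 0.33. At 1.5-fold, 2 enzymes were higher (Ldha and Pfkm) and 1 lower (Aldoc), 5 other members higher and 4 lower, and 2001 and 2745 of all measured genes. With a pseudocount of 5 CPM 412 measured genes were past 2-fold higher and 836 lower, and Ankrd37 was at 0.51. With 0.1 CPM 1 enzyme, Aldoc, was past 2-fold lower (−1.02). A mean of at least 5 CPM left out Aldoc, Ankrd37 and Car9. The share of enzyme counts does not use the scaling, pseudocount, filter, threshold or trend, so these alternatives do not check it. Medians do not use the threshold. The intervals of Car9 and Pfkfb4 (380 and 369 counts) included equal levels. Counts were few for Car9 (20 and 31), Ankrd37 (38 and 98), Aldoc (85 and 36) and, in KS, Epas1 (48).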

Other observations

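Of 18 further glycolytic isoenzymes and relatives, many of them typical of other tissues, 7 passed the filter on low values, led by Adpgk (77.2 CPM in KS and 74.3 in UKS), and the others averaged under 1 CPM. Hk3, Pgk2, Gapdhs, Pklr, Ldhc and Fbp2, known from blood cells, testis, liver and muscle, had no counts in either, which allows up to 0.114 CPM in KS and 0.128 CPM in UKS (3 counts, for counting error only). Of the 7 measured genes, none was past 2-fold higher and 1 lower, beside 5.81% and 10.7% of all measured genes, with a median log2 ratio of −0.17. The lower one was Pfkfb2, a relative of Pfkfb3 known from heart, at 15.7 CPM in KS and 7.07 in UKS, 2.22-fold lower [1.85 to 2.67] and within 2-fold with the trend removed (−0.70). Pfkfb3 thus stood higher and Pfkfb2 lower, while the X-linked Pfkfb1 (6.52 and 5.14 CPM) had an interval that included equal levels. Ldhb, the lactate dehydrogenase subunit of oxidative tissues, had 51.3 and 64.6 CPM, and Bpgm, which makes the haemoglobin effector 2,3-bisphosphoglycerate, had 17.0 and 21.7 CPM. The log2 ratio of Ldhb was 0.33, or −0.07 with the trend removed.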
